A study of Mus musculus with 8 samples.

Results

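The smooth muscle contractile genes of the mouse uterus were followed here as a set of 31 genes, chosen by symbol for their role in the contractile cells of the myometrium, out of 49585 genes in the count table. Of these, 31 of 31 were matched by Ensembl ID to the GENCODE M21 annotation (genome build GRCm38), and 31 of 31 passed the filter on low counts that left 22693 genes for testing. They comprise 9 genes of the actin thin filament, 4 of the myosin motor and its switch, 10 that anchor the filaments, 7 of excitation and calcium handling, and the transcriptional coactivator Myocd.

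The uteri came from Foxp3DTR females, 8 weeks of age, that had mated with BALB/c males and were killed at embryonic day 8 (E8). Foxp3DTR mice carry a diphtheria toxin receptor under control of the Foxp3 locus, so that toxin kills regulatory T cells, and both groups carried this allele. One group of 4 females (replicates 1, 3, 4 and 5) received 1 µg of diphtheria toxin (DT) into the peritoneum at E1, E3, E5 and E7, and the other group of 4 (replicates 1, 2, 4 and 6) received PBS. The labels call the injections daily but list these days, and state a depletion of 85% of regulatory T cells. Each library was made from the whole uterus with its conceptuses, so myometrium, decidua, blood vessels and fetal tissue were homogenised together.

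The myometrium is the muscular wall of the uterus. Its cells contract when calcium enters through voltage-gated channels or leaves internal stores, binds calmodulin and switches on myosin light chain kinase, which phosphorylates the regulatory light chain and lets smooth muscle myosin pull on actin. Oxytocin and prostaglandins act through receptors on these cells, potassium channels and cyclic GMP signalling oppose contraction, and serum response factor with its coactivator myocardin drives many of the genes through the CArG box in their promoters. During early pregnancy the muscle is kept quiet while the stroma beside it turns into decidua.

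The libraries held between 94794512 and 109847604 counts. The uterine genes Hoxa10 and Pgr measured from 350.4 to 439.9 CPM and from 237 to 387 CPM. Levels are given in CPM, counts scaled to the library total with TMM factors, and differences are log2 fold changes of DT-labelled over PBS-labelled libraries with their standard error. Foxp3 did not check the labels. Its level was 5.12, 5.1, 5.72 and 5.69 CPM under the DT label (replicates 1, 3, 4, 5) and 4.89, 4.36, 5.44 and 4.86 CPM under the PBS label (replicates 1, 2, 4, 6). The log2 fold change was 0.15 ± 0.10 (adjusted p = 0.595, edgeR quasi-likelihood test with Benjamini-Hochberg adjustment over all genes), so libraries are called by their labels. Some libraries stood apart. Conceptus genes were a list of 25 genes of trophoblast, yolk sac and embryonic blood, of which 21 were tested. Summed over these 21, they reached 485 and 1206 CPM in PBS-labelled replicates 1 and 2, against 52 to 141 CPM in the other libraries. DT-labelled replicate 1 had the lowest decidual RNA: Prl8a2, a prolactin-family hormone of decidual cells, measured 687 CPM there and between 2893 and 8960 CPM in the other 7 libraries.

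Because serum response factor acts through the CArG box (2 C, 6 A or T, then 2 G), the promoters of the set were searched for it. RefSeq promoter windows (build GRCm38.p6, from 250 bases before to 50 bases after the start of transcription) were at hand for 26 of the 31 genes, with entries for Tagln, Actg2, Myh11, Myocd and Nexn not used here. Only the 250 bases before the start were searched, for the set and for all genes alike. A full box, sought on both strands, was present for 3 of the 26 genes (11.5%), Myl9, Ldb3 and Fhl1, against 1.62% of 27025 genes with windows of the same length. With 1 letter of the A or T core allowed to differ, 7 of the 26 genes (26.9%) had a box, Acta2, Jph2, Cacna1c and Synm being the additional ones, against 9.78% of all genes. A match of letters is a description of the sequence and not evidence of binding. The sites below show the full and the near boxes of 5 of these genes, with the box in capitals, 5′ to 3′ on the strand of the gene. The last sequence is the upstream end of the window of Oxtr, the gene with the highest fold change of the set. The 250 bases searched for Oxtr held no match.
Acta2 (chr19:34255438-34255467, minus strand, near box): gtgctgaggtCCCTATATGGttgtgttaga
Acta2 (chr19:34255388-34255417, minus strand, near box): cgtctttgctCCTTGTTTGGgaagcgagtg
Myl9 (chr2:156775283-156775394, plus strand, a full and a near box): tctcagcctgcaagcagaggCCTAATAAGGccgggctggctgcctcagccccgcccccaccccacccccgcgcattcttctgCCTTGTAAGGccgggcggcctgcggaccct
Jph2 (chr2:163398037-163398086, minus strand, near box): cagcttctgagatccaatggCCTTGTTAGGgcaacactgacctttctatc
Ldb3 (chr14:34588687-34588736, minus strand, full box): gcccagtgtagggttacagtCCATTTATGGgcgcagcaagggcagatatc
Fhl1 (chrX:56779561-56779610, plus strand, full box): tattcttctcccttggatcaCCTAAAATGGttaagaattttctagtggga
Oxtr (chr6:112489944-112490075, minus strand, no box): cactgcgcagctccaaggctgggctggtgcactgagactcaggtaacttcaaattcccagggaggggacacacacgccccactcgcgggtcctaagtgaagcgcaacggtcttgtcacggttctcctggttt

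Per kilobase of exon, the set spanned a wide range of levels in the PBS-labelled libraries. Des, the muscle intermediate filament protein, which decidual stromal cells also make, was the most abundant at 678 CPM per kilobase. Acta2, the smooth muscle alpha-actin, followed at 223, then the LIM-domain protein Csrp1 at 192, the actin crosslinker Flna at 170.1, the actin-binding protein Tagln at 167 and the gamma smooth muscle actin Actg2 at 157 CPM per kilobase. The smooth muscle myosin heavy chain Myh11 stood at 75.2 CPM per kilobase. At the low end were Oxtr at 1.22, the calcium pump inhibitor Pln at 1.2, the PDZ-LIM protein Ldb3 at 0.547 and the potassium channel Kcnma1 at 0.53 CPM per kilobase. Tagln and Pln share 53.3% and 52.7% of their 75-base exon windows with annotated genes on the opposite strand (Pcsk7 and Gm48529, and Cep85l and Gm47644). Without knowledge of the strand setting, reads of these pairs could not be told apart. The share was at most 6.57% for each of the other 29 genes.

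The first comparison asked whether toxin-treated and control uteri differed in these genes. None of the 31 genes was called at an adjusted p under 0.05 (edgeR), where 0.326% of all genes tested were called (0.322% higher, 0.00441% lower), and none separated the groups completely, where the DT-labelled libraries lay all above for 3.33% and all below for 1.73% of all genes. At an unadjusted p under 0.05 there was 1 gene, Oxtr, which was higher, against 8.7% of all genes (4.72% higher, 3.98% lower). DESeq2 and limma voom also called 0 of 31, with 2 genes each at an unadjusted p under 0.05. The log2 fold change was above 0 for 27 of the 31 genes, against 51.4% of all genes, with a median of 0.11 against 0.01 and a range from -0.12 for Des to 0.81 for Oxtr. Other lists leaned the same way: 10 of 10 pericyte and vascular mural genes (median 0.17) and 6 of 8 fibroblast genes (median 0.20) were above 0. Of decidual genes 7 of 16 were above 0 (median -0.18), and of endothelial genes 3 of 8 (median -0.19). In whole-uterus RNA, more muscle cells, more RNA per muscle cell and a smaller share of other tissue cannot be told apart. The direction depended on the libraries included. Without DT-labelled replicate 1, 25 of the 31 log2 fold changes were below 0 (median -0.09), and without PBS-labelled replicates 1 and 2 together, 26 were below 0 (median -0.16). Without PBS-labelled replicate 1 alone 19 of the 31 were above 0, and without replicate 2 alone 16.

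**Figure D1:**
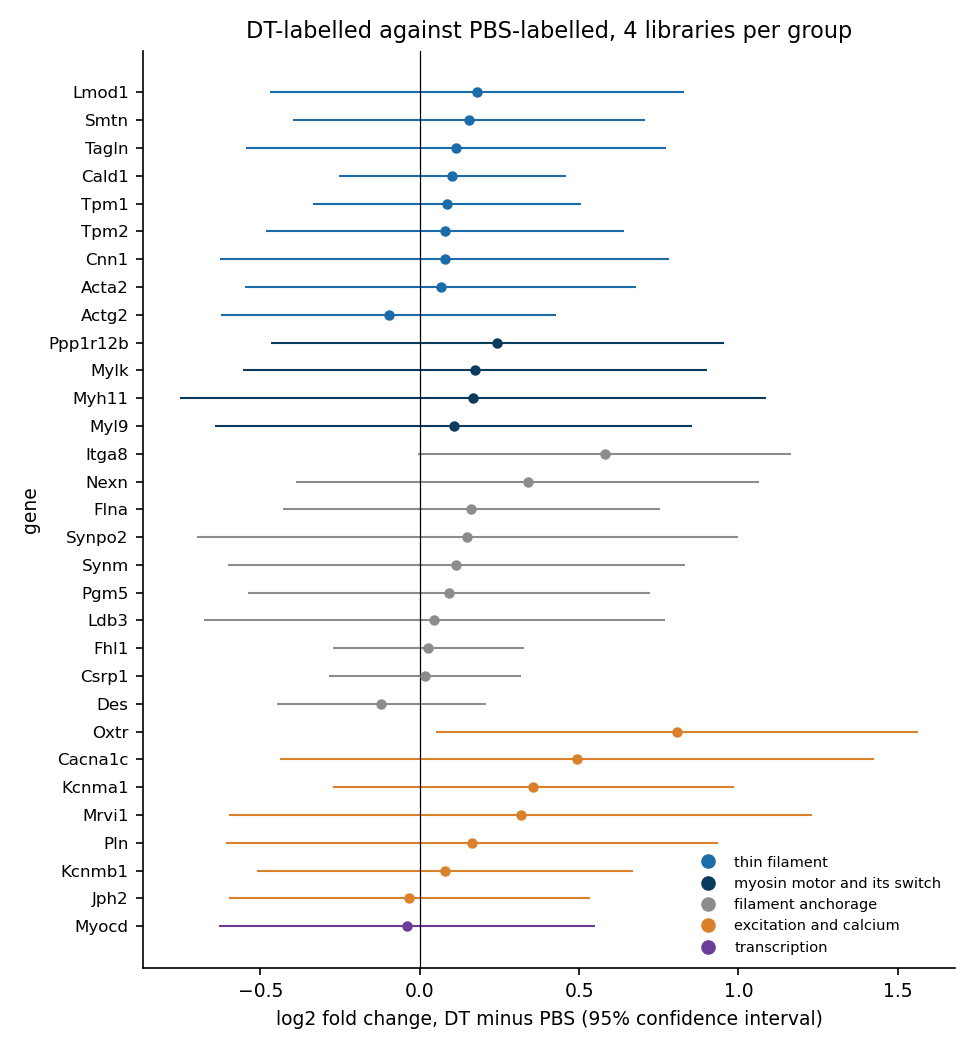
Log2 fold change of DT-labelled over PBS-labelled libraries for each of the 31 genes (4 libraries per group), with 95% confidence intervals from the edgeR quasi-likelihood fit. Most points lie between 0 and 0.4, and only the interval of Oxtr, from 0.05 to 1.56, does not include 0.

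Thin filament genes varied together. Acta2 (chr19:34241090-34255590, minus strand) was at 738, 459, 472 and 376 CPM in the DT-labelled libraries (replicates 1, 3, 4, 5) and at 370.4, 363, 676 and 546 CPM in the PBS-labelled libraries (replicates 1, 2, 4, 6), the order kept below. DT-labelled replicate 1 and PBS-labelled replicate 4 were high, PBS-labelled replicates 1 and 2 and DT-labelled replicate 5 were low, and the groups overlapped throughout. Averaged, Acta2 was at 511 ± 157 and 489 ± 151 CPM (SD, n = 4 each) and the log2 fold change was 0.07 ± 0.27 (95% interval -0.55 to 0.68, adjusted p = 0.925, edgeR).
Tagln, the actin-binding protein SM22-alpha, measured 539, 323, 324 and 255 CPM in the DT-labelled and 259, 231, 459 and 381 CPM in the PBS-labelled libraries. Cnn1, calponin, which binds actin and restrains the myosin motor, measured 175, 91.7, 94.3 and 72.4 CPM against 84, 74.7, 146 and 106 CPM. Both were high and low in much the same libraries as Acta2, with log2 fold changes of 0.11 ± 0.29 and 0.08 ± 0.31 (edgeR adjusted p = 0.87 and 0.92).
Actg2, the actin of visceral smooth muscle, departed from it slightly. Its levels were 345, 199.9, 193 and 177 CPM in the DT-labelled and 221, 201, 303 and 253 CPM in the PBS-labelled libraries. Outside DT-labelled replicate 1, each DT-labelled library was below each PBS-labelled one, and the log2 fold change was -0.10 ± 0.23 (edgeR adjusted p = 0.86). The tropomyosins Tpm1 and Tpm2, caldesmon (Cald1), smoothelin (Smtn) and the actin nucleator Lmod1 made up the rest of the thin filament group, with log2 fold changes from 0.08 to 0.18. For 9 of the 9 thin filament genes the highest library was DT-labelled replicate 1.

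The myosin genes spread further between libraries. Myh11 (chr16:14194535-14291372, minus strand) measured 1097, 528, 569 and 374 CPM in the DT-labelled libraries and 384, 341, 849 and 713 CPM in the PBS-labelled libraries. Its highest library, DT-labelled replicate 1, held 3.22 times the level of the lowest, PBS-labelled replicate 2, and the ranges of the groups overlapped from 374 to 849 CPM. Group means of 642 ± 315 and 572 ± 249 CPM (SD, n = 4 each) gave a log2 fold change of 0.17 ± 0.40 (95% interval -0.75 to 1.09, edgeR adjusted p = 0.862). The regulatory light chain Myl9, the light chain kinase Mylk and Ppp1r12b, a myosin phosphatase subunit, had log2 fold changes of 0.11, 0.17 and 0.24, and each was highest in DT-labelled replicate 1.

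Among the 10 anchorage genes, Des ran opposite to the rest. It measured 1799, 2555, 2342 and 2669 CPM in the DT-labelled and 2850.5, 2601, 2402 and 2328 CPM in the PBS-labelled libraries. DT-labelled replicate 1, the highest library for most of the set, was the lowest for Des, and the groups overlapped (log2 fold change -0.12 ± 0.14, edgeR adjusted p = 0.718). Fhl1, a LIM-domain protein, and Csrp1 were the flattest, with highest-to-lowest ratios of 1.46 and 1.4. The intermediate filament protein Synm, the Z-disc and dense-body proteins Synpo2, Ldb3 and Nexn, the adhesion protein Pgm5 and Flna followed the muscle pattern, with ratios from 2.12 (Flna) to 3.24 (Synpo2).
Itga8, the integrin alpha-8 chain (chr2:12106632-12301922, minus strand), measured 78.9, 49.4, 66.9 and 44 CPM in the DT-labelled and 31.4, 28.3, 53.2 and 47 CPM in the PBS-labelled libraries. PBS-labelled replicates 1 and 2 lay below every DT-labelled library, and replicates 4 and 6 lay among them. Its log2 fold change was 0.58 ± 0.25 (unadjusted p = 0.0513, adjusted p = 0.571, edgeR).

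Excitation and calcium genes had the highest median log2 fold change of the groups, 0.32, with 6 of 7 above 0 and none called. Oxtr, the oxytocin receptor (chr6:112473683-112489943, minus strand), measured 15.2, 8.75, 9.72 and 7.23 CPM in the DT-labelled and 3.75, 3.99, 8.63 and 6.97 CPM in the PBS-labelled libraries. Only PBS-labelled replicate 4 exceeded any DT-labelled library, namely replicate 5. Mean levels were 10.2 ± 3.45 and 5.84 ± 2.37 CPM (SD, n = 4 each), and the difference of 0.81 ± 0.33 (log2) had an unadjusted p of 0.0389 and did not pass adjustment over all genes (edgeR adjusted p = 0.563). Without PBS-labelled replicates 1 and 2 and DT-labelled replicate 1 the difference was 0.13.
Cacna1c, the pore of the L-type calcium channel (chr6:118587240-119196418, minus strand), measured 92, 44.4, 53.8 and 33.8 CPM against 24.7, 22.9, 60.7 and 50.8 CPM (log2 fold change 0.49 ± 0.41, edgeR adjusted p = 0.629). The calcium-activated potassium channel relaxes the muscle. Its pore gene Kcnma1 measured 17.5, 9.78, 11.2 and 7.61 CPM against 7.08, 7.06, 11 and 10.8 CPM (log2 fold change 0.36 ± 0.27), and its subunit gene Kcnmb1 13.7, 8.68, 9.22 and 7.22 CPM against 7.62, 6.46, 12.6 and 10.1 CPM (0.08 ± 0.26). All 3 channel genes overlapped between the groups.
Pln measured 5.77, 3.1, 3.43 and 2.57 CPM in the DT-labelled and 2.35, 2.21, 5.02 and 3.71 CPM in the PBS-labelled libraries (log2 fold change 0.16 ± 0.34, edgeR adjusted p = 0.838). Mrvi1, which restrains calcium release downstream of cyclic GMP, and Jph2, which ties the calcium store to the cell surface, had log2 fold changes of 0.32 ± 0.40 and -0.03 ± 0.25.

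Myocd, the coactivator of serum response factor, had another highest library than most of the genes it is known to drive. Its level was 29.5, 23.7, 31.6 and 19.4 CPM in the DT-labelled and 22.5, 17.7, 40 and 26.8 CPM in the PBS-labelled libraries. PBS-labelled replicate 4 was highest, above DT-labelled replicates 4 and 1, and the groups overlapped. Its log2 fold change was -0.04 ± 0.26 (edgeR adjusted p = 0.954).

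**Figure D2:**
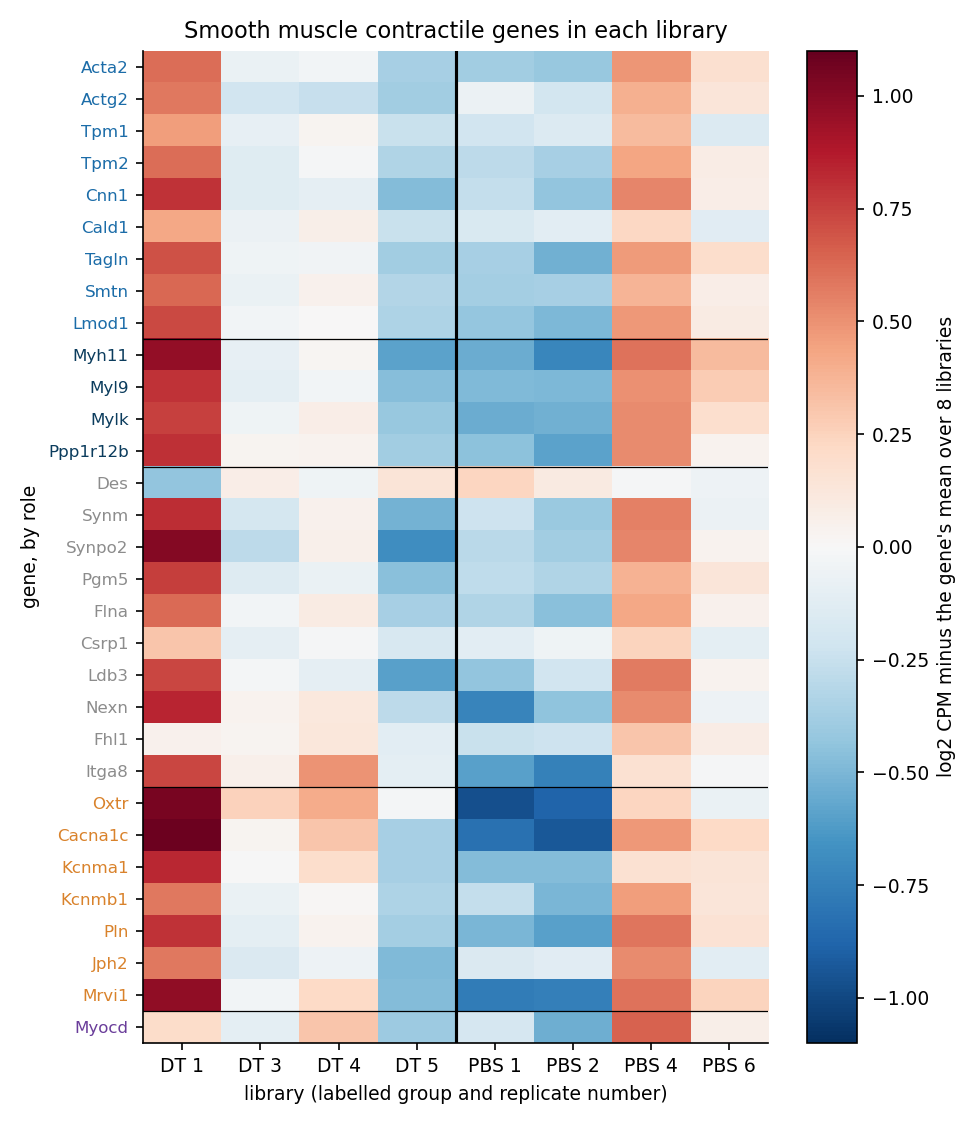
Level of each of the 31 genes (rows, grouped by role and coloured by it) in each of the 8 libraries (columns), as log2 CPM minus the mean of the gene over all libraries. DT-labelled replicate 1 is highest for 28 of the 31 genes and PBS-labelled replicate 4 is mostly second, while Des shows the opposite order.

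The second comparison concerned variation between libraries, which had a larger median for these genes than for all genes tested and followed a common library order. The highest library held between 1.4 and 4.05 times the level of the lowest, with a median of 2.33 against 1.68 over all genes tested. The highest library was DT-labelled replicate 1 for 28 of the 31 genes, against 27.2% of all genes, and the highest PBS-labelled library was replicate 4 for 30 of 31, against 34.7% of all genes. For 30 of the 31 genes the lowest library was PBS-labelled replicate 1 or 2 or DT-labelled replicate 5, against 44.6% of all genes. Together the 31 genes took up 1.31%, 0.823%, 0.877% and 0.707% of counts in the DT-labelled and 0.676%, 0.647%, 1.09% and 0.881% in the PBS-labelled libraries.

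Most of the muscle genes were lower where a score of decidual genes was higher. Each gene was regressed on the decidual score of a library, the mean centred log2 CPM of 16 decidual genes such as Prl8a2, Bmp2 and Hand2, with treatment as a second term (edgeR quasi-likelihood). The score was -0.82, 0.13, -0.05 and 0.18 in the DT-labelled and 0.28, 0.24, -0.15 and 0.19 in the PBS-labelled libraries, so it was low mainly in DT-labelled replicate 1. The 16 decidual genes did not all follow it: 5 had a called positive slope on the score, 0 a called negative one, and 2 had slopes below 0. For the muscle set the slopes were as follows. The slope was negative and called for 27 of the 31 genes, against 9.36% of all genes, and the median slope was -1.09 against -0.02, in log2 units of the gene per unit of score. Synpo2 had the steepest slope, -1.58 ± 0.17 (edgeR adjusted p = 0.00133), and Myh11 fell by 1.51 ± 0.35 (edgeR adjusted p = 0.0209). Acta2 fell by 1.02 ± 0.22 and Cnn1 by 1.27 ± 0.18 per unit (edgeR adjusted p = 0.0173 and 0.00392). Des alone rose with the decidual score, by 0.52 ± 0.11 (edgeR adjusted p = 0.0163), where 13.3% of all genes had a called positive slope. Fhl1, Itga8 and Myocd had negative slopes that were not called (edgeR adjusted p = 0.361, 0.0552 and 0.178). The sign of the slope was the same for all 31 genes in each alternative, but the count of negative calls fell to 20 without DT-labelled replicate 1, to 11 without DT-labelled replicate 5 and to 8 with scaling by library size alone, and Des was no longer called with that scaling or without DT-labelled replicate 1, 3 or 5. Scores and genes come from the same libraries and CPM are shares of one total, so these slopes describe how levels varied together.

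Most of the muscle genes were also lower where conceptus genes were higher, and the number of calls depended on one library. The conceptus score, over 21 genes, was -2.17, -0.06, -1.16 and -0.29 in the DT-labelled and 2.12, 3.39, -1.52 and -0.30 in the PBS-labelled libraries. Negative slopes were called for 23 of the 31 genes, against 11.8% of all genes, with a median of -0.22, and no positive slope was called, against 11% of all genes (1 gene, Des, had a slope above 0, not called, edgeR adjusted p = 0.2). Without PBS-labelled replicate 4 only 2 of the 31 were called, while the median slope was -0.23, 30 of the 31 slopes were below 0 and 25 of the 31 had an unadjusted p under 0.05. Without PBS-labelled replicates 1 and 2, whose conceptus genes stood apart, 27 were called. Cacna1c had the steepest slope, -0.36 (edgeR adjusted p = 0.00504), followed by Myh11 and Mrvi1 at -0.34 each. With the conceptus score as a covariate, 28 of the 31 log2 fold changes of DT-labelled over PBS-labelled libraries were below 0 (median -0.28), and with the decidual score 26 were (median -0.18), with 0 genes called in both fits.

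**Figure D3:**
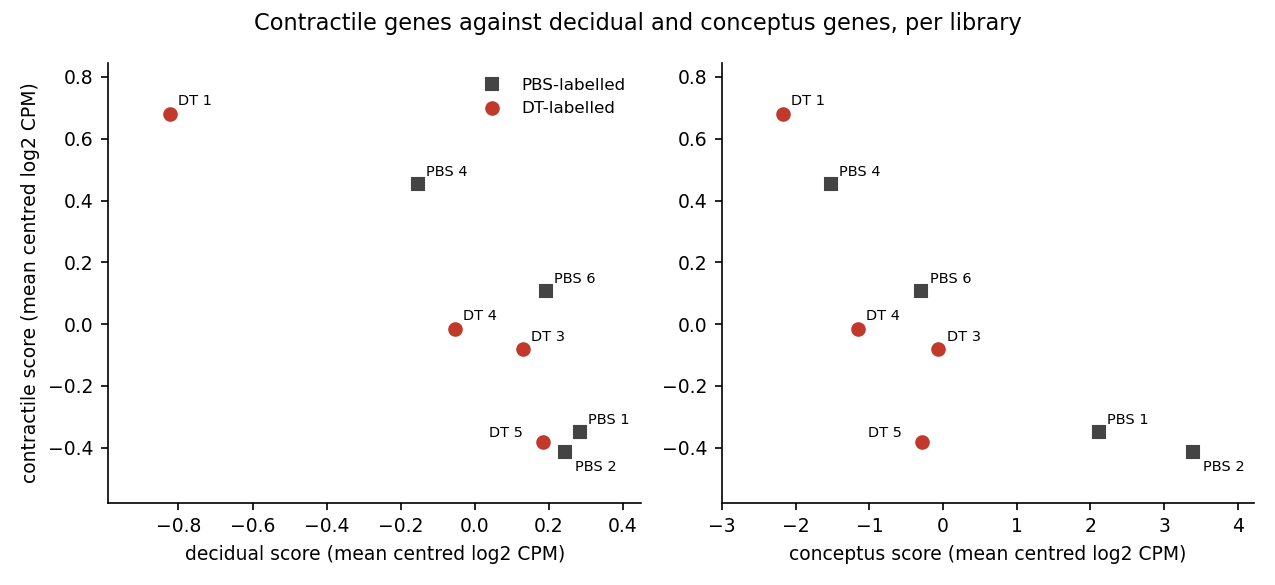
Contractile score (mean centred log2 CPM of 13 thin filament and myosin genes) of each library against its decidual score (left) and conceptus score (right). DT-labelled replicate 1 combines the highest contractile score, 0.68, with the lowest decidual score, -0.82, and PBS-labelled replicates 1 and 2 lie at the low end of the contractile score with the highest conceptus scores.

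Since most of the contractile genes moved up and down together, the genes were examined next relative to Myh11 in the same library. Whole-uterus RNA does not show which cells the reads of each gene came from. This comparison was added after the data had been seen. Expressed as a percentage of the Myh11 count in the same library, Oxtr measured 1.38%, 1.66%, 1.71% and 1.93% in the DT-labelled and 0.976%, 1.17%, 1.02% and 0.978% in the PBS-labelled libraries. Each DT-labelled library was above each PBS-labelled one, and the ratio of the means was 1.61. Cacna1c measured 8.38%, 8.41%, 9.46% and 9.04% against 6.44%, 6.71%, 7.15% and 7.13%, again without overlap, with a ratio of means of 1.29. Mrvi1 separated the groups by a narrow margin, with 9.19%, 9.52%, 10.5% and 9.84% against 7.87%, 8.91%, 9.11% and 8.53% (ratio 1.13). Of the 30 genes other than Myh11, these 3 lay above and 0 lay below without overlap, where 1.17% and 0.101% of all genes did. Myh11 itself varied 3.22-fold, with high and low libraries in both groups. A gene with a flat level overlaps between the groups once divided by it. The share over all genes is therefore low for that reason too and is not an even background for these 3. Itga8 overlapped, with 7.19%, 9.35%, 11.8% and 11.8% against 8.18%, 8.3%, 6.27% and 6.6%.

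**Figure D4:**
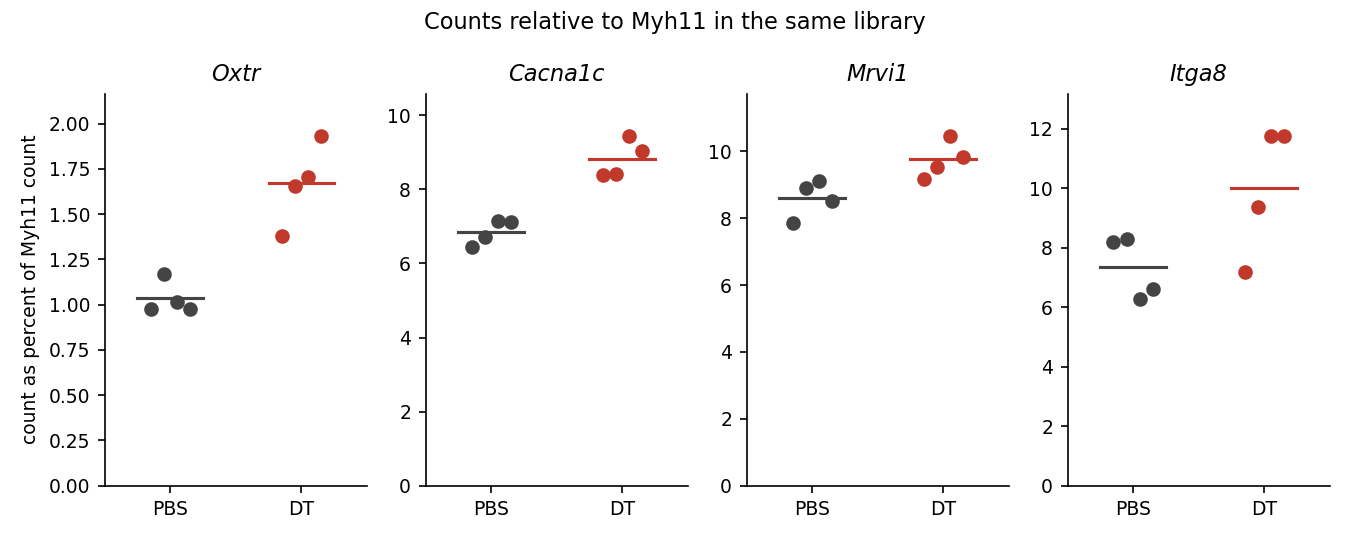
Counts of Oxtr, Cacna1c, Mrvi1 and Itga8 as a percentage of the Myh11 count of the same library, with 1 point per library and a line at the mean of each group (4 libraries each). Oxtr lies between 1.38% and 1.93% in the DT-labelled libraries and between 0.976% and 1.17% in the PBS-labelled ones.

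A fit over all genes with the contractile score as a covariate, likewise added after seeing the data, put Oxtr higher by 0.71 ± 0.09 on the log2 scale (edgeR adjusted p = 0.00948). The score is the mean centred log2 CPM of the 13 thin filament and myosin genes, and was 0.68, -0.08, -0.01 and -0.38 in the DT-labelled and -0.35, -0.41, 0.45 and 0.11 in the PBS-labelled libraries. Of the 18 genes outside the score, Oxtr and Itga8 (0.50 ± 0.10, edgeR adjusted p = 0.0418) were called higher and 0 lower, where 2.21% and 1.03% of all genes were called. At an unadjusted p under 0.05, 5 of the 18 were higher and 0 lower, where 10.3% and 10.4% of all genes were. Cacna1c, at 0.36 ± 0.10, was not called (edgeR adjusted p = 0.0894), nor was Mrvi1 at 0.18 ± 0.09 (edgeR adjusted p = 0.269). Over 11 alternatives of this fit the log2 fold change of Oxtr lay between 0.57 and 0.78 and its adjusted p between 0.00523 and 0.0637, and it was not called without DT-labelled replicate 5. Itga8 had an adjusted p between 0.017 and 0.173 and was lost when any single library other than DT-labelled replicate 1 was left out, and also without PBS-labelled replicates 1 and 2 together. Cacna1c was called in 3 of the 11 alternatives, those with Myh11 alone as covariate, without DT-labelled replicate 1 and without PBS-labelled replicate 6.

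Genes that act on contraction outside the set were counted from a list of 30, all of them tested. None was called between the groups (edgeR), with 1 above and 2 below 0 among those with an unadjusted p under 0.05 (4.72% and 3.98% of all genes), and a median log2 fold change of -0.01. The 3 with the smallest p were Gucy1a1 (-0.56 ± 0.17) and Gucy1b1 (-0.68 ± 0.26), the subunits of the nitric oxide receptor that makes cyclic GMP, and the vasopressin receptor Avpr1a (1.38 ± 0.47, edgeR adjusted p = 0.463, 0.558 and 0.54). Beside Oxtr stood the receptors Ptgfr and Avpr1a, which were singled out after their values were seen. Ptgfr, the prostaglandin F receptor, measured 7.36, 3.59, 4.49 and 3.1 CPM in the DT-labelled and 1.59, 1.61, 4.29 and 2.86 CPM in the PBS-labelled libraries. Avpr1a, a receptor of vasopressin, was scarce at 1.24, 0.34, 0.592 and 0.398 CPM against 0.229, 0.144, 0.378 and 0.236 CPM. Both groups of values overlapped by 1 PBS-labelled library, replicate 4, as those of Oxtr did. The group differences of Ptgfr, Avpr1a and Gucy1b1 depended on the libraries included. Without PBS-labelled replicates 1 and 2 and DT-labelled replicate 1, they were 0.06, 0.53 and -0.13 (log2). With the conceptus score as a covariate they were 0.27, 0.70 and -0.26. Their slopes on the decidual score were -1.46, -1.78 and 1.13 (edgeR adjusted p = 0.0239, 0.00775 and 0.008). With the contractile score as a covariate Ptgfr was higher by 0.74 ± 0.11 and Avpr1a by 1.14 ± 0.24 on the log2 scale, and Gucy1b1 was lower (-0.57 ± 0.07, edgeR adjusted p = 0.0157, 0.0485 and 0.00923), the only 3 of the 30 that were called. Without DT-labelled replicate 5 none of these 3 was called, while the log2 fold changes were 0.68 for Ptgfr, 1.08 for Avpr1a and -0.53 for Gucy1b1. Of the 11 alternatives, Avpr1a was called only without DT-labelled replicate 3. Ptgfr was also lost without DT-labelled replicate 4, without PBS-labelled replicate 1 and without PBS-labelled replicates 1 and 2 together, and Gucy1b1 also without those 2 together. The gap junction gene Gja1, known with Oxtr for its rise towards labour, had a log2 fold change of -0.16 ± 0.15, with levels from 1519.5 to 2497 CPM.

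Further lists of the contractile programme showed no called gene either. Of 14 genes of the serum response factor pathway, 0 had an unadjusted p under 0.05, with a median log2 fold change of -0.08, and Mrtfa, Mef2a and Mrtfb had the smallest p (0.10 ± 0.06, -0.12 ± 0.07 and -0.18 ± 0.11). The 28 dense-body and costamere genes tested had a median log2 fold change of -0.04.

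Other cell types that make contractile proteins were measured beside the set. Markers of pericytes and vascular mural cells, of which 10 of 10 were detected, summed to between 554 and 727 CPM in the DT-labelled and between 438 and 722 CPM in the PBS-labelled libraries, lowest in PBS-labelled replicates 1 and 2 as most of the contractile genes were. Negative slopes on the conceptus score were called for 6 of these 10 genes and on the decidual score for 2, against 11.8% and 9.36% of all genes. Their part in the results was not tested. Embryonic heart markers, 11 of 14 tested, summed to between 32.8 and 52.7 CPM and between 34.8 and 57.8 CPM in the 2 groups. The sums overlapped, but 2 of the 11 log2 fold changes were above 0 and the median was -0.68. At an unadjusted p under 0.05 (edgeR), 6 of the 11 were lower and 1 higher, against 3.98% and 4.72% of all genes, with 0 called. The cardiac myosin gene Myh6 reached 7.27 CPM in PBS-labelled replicate 2 and Nkx2-5 was at 0 in 3 of 8 libraries. Skeletal muscle markers, 8 of 12 tested, summed to between 25.2 and 47 CPM and between 29.1 and 38.9 CPM, most of it from Acta1, while Myh4 and Pvalb were at or near 0. Fibroblast genes, 8 of 8 tested, summed to between 9779.8 and 15630 CPM and between 9404 and 12632 CPM, and 6 of the 8 had called negative slopes on the decidual score, against 9.36% of all genes.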

How the data were processed

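RNA of 8 uteri was sequenced as paired reads of about 75 bases, per the labels' protocols. Raw read counts for Ensembl genes, as the authors deposited them, were the starting point. The submitters' processing notes name HISAT2, featureCounts, Trimmomatic, SAMtools, DESeq2 and the build GRCm38. Versions, annotation and strand setting are not stated in any source used here. Both forms of the table, per series and per library, held the same counts (0 differing cells). No library pair agreed within sampling noise (smallest chi-square per degree of freedom 28.81 over 28 pairs). Each library was taken as 1 female.

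Counts were fitted in R 4.3.3 with edgeR 4.0.16 (filterByExpr with a minimum count of 10, TMM, robust quasi-likelihood test, two-sided), with p-values adjusted over 22693 genes and called under 0.05. The biological coefficient of variation was 25%, so differences between libraries rather than counting error limited precision. Alternatives used DESeq2 1.42.0, limma 3.58.1, other scalings, filters and covariates, and each library left out. All 31 genes are named: values per library are given for 10 fixed genes, for the 3 smallest p in each direction and for those called or not overlapping. The genes and lists were chosen with earlier results of these data known. Promoters are from RefSeq.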

Additional observations from a re-analysis of the deposited data

Results flagged for a closer look

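In 4 of 68 groups of 4 libraries examined, 1 library lay far from the other 3, its gap to the nearest being over 0.829 of the range of the group. Chance gives this in about 1 of 20 groups. Actg2 measured 345 CPM in DT-labelled replicate 1, with the next DT-labelled library at 199.9 CPM. In PBS-labelled replicate 4, Tpm1 measured 525 CPM (next 373 CPM), Cald1 379 CPM (next 298 CPM) and Jph2 30.7 CPM (next 19.7 CPM). DT-labelled replicate 1 also had the lowest decidual score, and PBS-labelled replicate 4 the lowest conceptus score of its group. Their part in these values was not tested.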

How the results depend on the processing

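No gene of the set was called between DT-labelled and PBS-labelled libraries in any alternative except with the contractile score as covariate, which called 2 higher. Called genes over the whole table, higher and lower, numbered 73 and 1, and 275 and 58 with DESeq2, 78 and 2 with library size scaling, 97 and 2 with the conceptus score as covariate, 197 and 6 with the decidual score, 501 and 233 with the contractile score, and 0 and 1 without PBS-labelled replicates 1 and 2. With single libraries left out they ranged from 0 to 115 and from 0 to 5. The replicate block called 0 higher and 0 lower genes and put 29 of the 31 log2 fold changes above 0. Only numbers 1 and 4 are shared by the groups, and same-numbered libraries deviated with correlations of -0.491 and 0.321. So few shared numbers cannot decide whether they pair the libraries, and the main fit treated the libraries as unpaired.

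Negative slopes on the conceptus score were called for 13 of 31 genes with yolk sac genes alone, and for 2 to 25 with single libraries left out. On the decidual score, library size scaling called 8 negative and 0 positive, leaving out PBS-labelled replicates 1 and 2 and DT-labelled replicate 1 called 16 and 0, and leaving out single libraries 11 to 28 and 0 to 1. Given the contractile score, 1 gene was called without PBS-labelled replicates 1 and 2, 0 to 3 with single libraries left out. Oxtr and Itga8 stayed above 0 in all 19 alternatives of the comparison of the groups (0.13 to 1.09 and 0.09 to 0.83), but their size depended on the libraries included. The lowest values came without PBS-labelled replicates 1 and 2 and DT-labelled replicate 1. With the conceptus score as a covariate the values were 0.33 and 0.18. The alternatives share most of their libraries, so a constant sign is weak support. The cause of these changes was not tested. With 4 females a group and this spread, the design limits the precision more than the depth does.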
